A study of Mus musculus with 6 samples.

Results

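Epithelial cells are held together by 4 kinds of junction, and the genes described here encode the proteins that build them. They were chosen by symbol, as a list of 46 genes, and 44 of them have a row among the 21960 genes in the counts, with 23 genes of the tight junction, 10 of the desmosome, 6 of the adherens junction and 5 of the gap junction. The symbols Pals1 and Perp2 had no row. The counts hold Mpp5, for which RefSeq lists Pals1 as a synonym, and Perp, and both are given apart below. RNA-Seq was performed on 3 mock and 3 p140Cap libraries of TuBo cells, which were established from BALB/c-MMTV-NeuT mice, where an MMTV promoter drives the activated rat HER2 oncogene, and both groups carry this transgene. Mock cells are labelled wild type (wt) and p140Cap cells overexpress p140Cap from a retroviral pBabe-puro cDNA, after puromycin selection and pooling of clones grown from single cells. The series' own design text speaks of mice and its treatment text also mentions 4T1 cells, while sample labels name cell lines, and the libraries are read here as TuBo cells. The p140Cap group is thus a pool of clones of a single line, and whether the replicates came from separate cultures is not given in the sources used, so p-values measure the spread between these libraries, which may be technical.

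Tight junctions seal the space between neighbouring cells near their apical side. Claudins form the strands and decide which ions and small molecules pass, occludin and its relatives sit in the same strands, and ZO proteins and cingulins tie the strands to actin, while the Crumbs and Par complexes set the apical border. Desmosomes are spot-like anchors in which cadherins (desmogleins and desmocollins) bind those of the next cell and are linked to keratin filaments by plakoglobin, plakophilins and plakins. Adherens junctions join actin belts through cadherins, catenins and nectins, and gap junctions are channels of connexins that let small molecules pass from cell to cell. In the mammary gland these structures separate milk from the tissue fluid and couple the secretory cells.

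Total counts per library lay between 13770385 and 75506562 reads, and the mock libraries were all deeper than the p140Cap ones (ratio of medians 2.62), so rare transcripts were measured less precisely in p140Cap cells. Levels are given as CPM, the reads of a gene scaled to equal library size, normalized with edgeR's TMM factors. Differences are log2 fold changes of p140Cap over mock with their standard error (SE), and a gene was called at an adjusted p under 0.05 from the quasi-likelihood test of edgeR, adjusted after Benjamini and Hochberg over all 11800 genes tested. With 3 libraries against 3, an exact permutation test of a single gene cannot give a p below 0.1. As a check of the labels, Srcin1, the gene of p140Cap, stood at 15 ± 1.96 CPM in mock and at 2343 ± 153 CPM in p140Cap cells (SD over n = 3). In bulk RNA, fewer cells that make a transcript and less of it per cell cannot be told apart. The cells were epithelial by their markers. Summed over 6 epithelial marker genes (Epcam, Cdh1, Krt8, Krt18, Krt7 and Krt19), the level was 5406 to 5807 CPM in mock and 5993 to 6092 CPM in p140Cap libraries, of which Krt19 held at most 5 reads in any library. Within this sum Krt7 went the other way from Epcam and Krt18, falling from 803 ± 58.4 to 447 ± 12.8 CPM (SD over n = 3), with a log2 fold change of -0.84 (edgeR adjusted p = 9.45e-10). Leukocyte markers summed to 2.04 to 2.34 CPM in mock and 3.23 to 4.09 CPM in p140Cap cells, with 4 of 6, Ptprc, the pan-leukocyte gene, among them, at 0 reads and nearly all reads on Cd68. Fibroblast markers summed to 9.97 to 10.5 CPM in mock and 11.3 to 14.1 CPM in p140Cap cells, with 5 of 8, including Col1a2, Col3a1 and Dcn, at 0 reads, and endothelial markers to 0.210 to 0.503 CPM in mock and 0.477 to 0.734 CPM in p140Cap cells, with Kdr and Cldn5 at 0 reads. Of these markers, Pecam1 (log2 fold change 1.25, edgeR adjusted p = 0.0133), Cd68 (0.83, edgeR adjusted p = 0.000119) and Col1a1 (0.80) were called higher in p140Cap cells. Pdgfra, which held most of the fibroblast sum, was at 7.18 ± 0.688 CPM in mock and 7.67 ± 0.830 CPM in p140Cap cells (SD over n = 3). It was not called (log2 fold change 0.09, edgeR adjusted p = 0.499). The part of such cells in the results below was not tested.

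Promoter sequences are shown for a pair of claudins and a pair of connexins whose members moved in opposite directions, Cldn4 against Cldn7 and Gjb1 against Gja1, so that a reader can see what lies upstream of them. Each is the 250 bases before an annotated start, 5′ to 3′ on the gene's strand, from RefSeq on GRCm38.p6. Capitals mark the E-box CAGGTG, the site bound by Snail and Zeb repressors, and the AP-1 site TGACTCA, each on either strand, so that they also read CACCTG and TGAGTCA. Cldn4 and Gja1 have 1 annotated start in the table, Cldn7 has 2 and Gjb1 has 4, and for the last pair the start with an E-box was taken. They lie, in the order printed, at chr5:134946935-134947184 (minus strand), chr11:69965171-69965420 (plus), chr10:56377050-56377299 (plus) and chrX:101383482-101383731 (plus).
Cldn4: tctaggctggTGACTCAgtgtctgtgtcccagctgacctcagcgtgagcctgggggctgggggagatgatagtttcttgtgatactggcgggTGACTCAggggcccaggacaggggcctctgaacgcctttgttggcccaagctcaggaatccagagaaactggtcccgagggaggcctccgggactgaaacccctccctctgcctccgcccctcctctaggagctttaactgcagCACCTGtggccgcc
Cldn7: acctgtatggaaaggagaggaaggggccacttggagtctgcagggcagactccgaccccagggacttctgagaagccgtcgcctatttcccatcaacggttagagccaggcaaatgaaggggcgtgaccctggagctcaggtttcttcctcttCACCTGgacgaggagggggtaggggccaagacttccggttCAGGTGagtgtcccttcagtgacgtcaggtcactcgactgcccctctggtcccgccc
Gja1: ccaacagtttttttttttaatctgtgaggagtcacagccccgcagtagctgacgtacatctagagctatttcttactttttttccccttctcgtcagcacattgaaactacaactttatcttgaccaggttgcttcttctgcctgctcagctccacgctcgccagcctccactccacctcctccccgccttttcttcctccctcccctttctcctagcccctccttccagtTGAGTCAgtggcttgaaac
Gjb1: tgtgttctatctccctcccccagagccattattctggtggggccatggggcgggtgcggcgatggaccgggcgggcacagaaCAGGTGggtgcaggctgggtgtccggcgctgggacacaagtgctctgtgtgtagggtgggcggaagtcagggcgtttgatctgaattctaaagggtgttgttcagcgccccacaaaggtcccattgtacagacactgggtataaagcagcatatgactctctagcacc
In Cldn4 an E-box begins 14 bases before the start and AP-1 sites begin 158 and 240 bases before it. In Cldn7 E-boxes begin 57 and 97 bases before the second start. Gja1 has an AP-1 site that begins 19 bases before its start, and Gjb1 has an E-box that begins 168 bases before the start shown. Promoters were in the table for 30 of the 44 genes. CAGGTG was found in 13 of the 30 (43.3%) and in 19.4% of all 27025 genes with a promoter, and TGACTCA in 5 of the 30 (16.7%) and in 5.16% of all. Of the 9 motifs searched, AACCNGTT, a site of Grainyhead factors, was found in Cgn alone (2.00% of all genes), CTTTGAT, a TCF/LEF site, was found in none (3.72% of all), and CTTTGAA was found in Gjb1 alone (5.19% of all). CTTTGTT was found in Cldn4 (5.77% of all), GGAATG in 5 genes (14.4% of all), CCGGAAGT in 2 (3.23% of all) and TTCCNGGAA in none (1.09% of all). All motifs were searched on both strands, and none of them contains another. A gene was counted where any of its annotated starts had the motif, so genes with more starts had more windows. The 27025 genes are more than the 21960 in the counts. The shares were not matched for number of starts or for expression. The other starts of Cldn7 and Gjb1 had neither of the marked motifs. These are matches of letters in a window, and the data hold no measure of binding.

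Most of the junction genes listed changed by little, and more of them rose than fell. Called junction genes outside the list, given below, were as many higher as lower. Of the 44 genes, 41 had enough reads for the test, and 26 of these (63.4%) were called, 19 higher and 7 lower in p140Cap cells. Without a filter on low counts, 16 were higher and 11 lower. Among all genes tested, 71.1% were called, 35.2% higher and 35.9% lower, so that the share of junction genes called was near that of all genes and is no result about them, while 46.3% of those tested were higher and 17.1% lower. The median log2 fold change of the 41 was 0.11, beside -0.002 for all genes, and the median size of the change was 0.22, beside 0.32 for all genes. Called with a change of at least 1 log2 unit were 3 junction genes (Cldn2, Cldn15 and Gja1), where 9.97% of all genes tested were. For 26 of the 41 (63.4%) the ranges of the mock and p140Cap libraries lay apart, beside 73.4% of all genes tested, and 25 of the 26 called genes were among them. Crb3 was called although its groups overlapped, and Pard3 was not called although they did not.

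**Figure D1:**
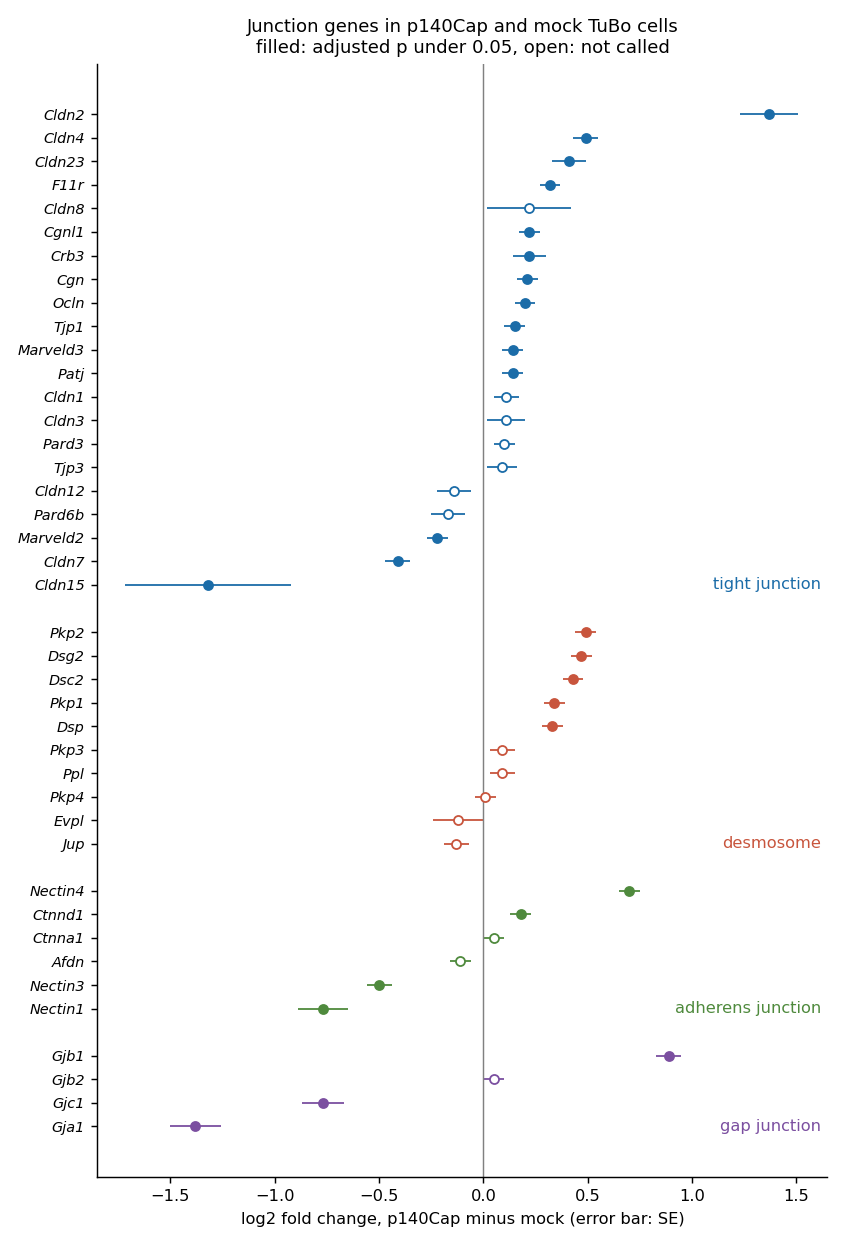
Log2 fold change of p140Cap over mock cells (x axis) with its SE for the 41 junction genes tested, grouped by junction type and ordered by size, with filled points for an adjusted p under 0.05. The 5 called genes of the desmosome lie to the right of 0, while called genes of the other types lie on both sides.

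By junction type, the share called was 66.7% in the tight junction, 50% in the desmosome, 66.7% in the adherens junction and 75% in the gap junction, beside 71.1% of all genes tested (35.2% higher and 35.9% lower). In the tight junction, 14 of 21 genes tested were called, 11 higher and 3 lower, with a median log2 fold change of 0.14. In the desmosome, 5 of 10 were called, all 5 of them higher, with a median of 0.21. In the adherens junction, 4 of 6 were called, 2 in each direction, with a median of -0.03. In the gap junction, 3 of 4 were called, 1 higher and 2 lower, with a median of -0.36 and a median size of 0.83. The types hold few genes, and their difference was not tested.

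**Figure D2:**
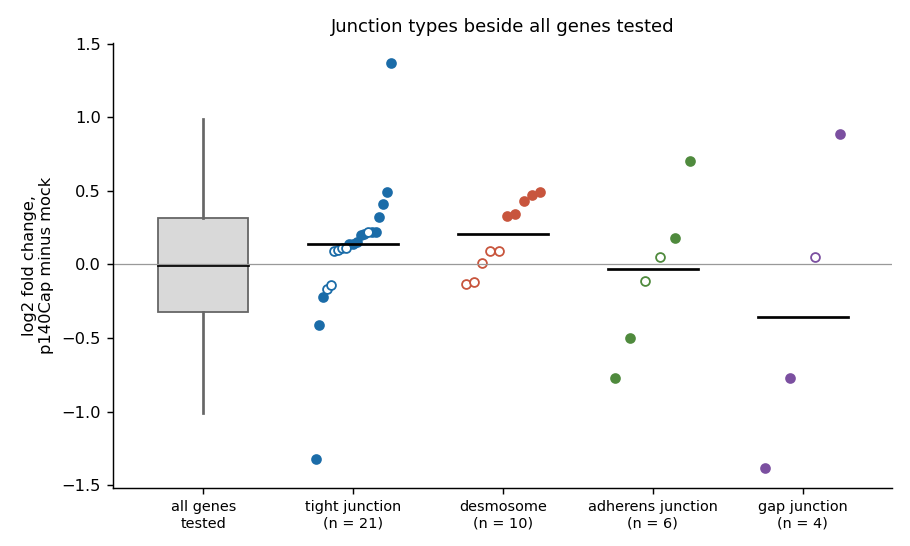
Log2 fold change of the genes tested in each junction type (points, filled where called, with the median as a line) beside all 11800 genes tested, shown as a box from the 25th to the 75th percentile (-0.321 to 0.313) with whiskers from the 5th to the 95th (-1.01 to 0.992). Gap junction genes spread from -1.38 to 0.89, and desmosome genes from -0.13 to 0.49.

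Summed over the genes of a type, the tight junction genes were at 2531, 2423 and 2564 CPM in mock and 2747, 2940 and 2713 CPM in p140Cap libraries, a ratio of means of 1.12. Desmosome genes summed to 2388, 2243 and 2403 CPM in mock and 2564, 2756 and 2526 CPM in p140Cap libraries, a ratio of 1.12. For both types each p140Cap library was above each mock library. Adherens junction genes summed to 1853 ± 41.1 CPM in mock and 1954 ± 64.2 CPM in p140Cap cells, and gap junction genes to 116 ± 1.37 and 127 ± 4.54 CPM (SD over n = 3), where the groups overlapped for the former and not for the latter. The connexin total was thus a small part of the junction transcripts in both groups.

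Among the claudins, Cldn3, Cldn4 and Cldn7 were the abundant genes. Per kilobase of the canonical transcript, Cldn3 was at 211 CPM per kb in mock and 227 in p140Cap cells, Cldn4 at 119 and 167, and Cldn7 at 166 and 125, and Cldn1 came next at 19.9 and 21.4 CPM per kb. Cldn4 (chr5:134945123-134946934 of GRCm38.p6, minus strand), a claudin of tight, barrier-forming epithelia whose promoter is printed above, was at 215, 203 and 230 CPM in mock and 285, 330 and 293 CPM in p140Cap libraries. Each p140Cap library was above each mock library. Its log2 fold change was 0.49 with an SE of 0.06 (edgeR adjusted p = 1.95e-06). Cldn7 (chr11:69964779-69967886, plus strand), a claudin also found along the lateral membrane outside tight junctions, moved the other way. It was at 213, 217 and 235 CPM in mock and 159, 180 and 160 CPM in p140Cap libraries, with no overlap, and its log2 fold change was -0.41 with an SE of 0.06 (edgeR adjusted p = 5.78e-06). Cldn7 shares 331 exon bases with Elp5 on the other strand, and Cldn3 shares 906 with Wbscr25, also on the other strand. Cldn3 was at 257, 234 and 304 CPM in mock and 264, 326 and 265 CPM in p140Cap libraries. The groups overlapped, and its log2 fold change of 0.11 with an SE of 0.09 (edgeR adjusted p = 0.285) was within the spread. It was 0.21 and called (adjusted p = 0.0237, edgeR) without mock replicate 3, and -0.00386 without p140Cap replicate 2.

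The make-up of the claudin transcripts therefore shifted between Cldn4 and Cldn7. As a share of the CPM per kb of the 11 claudins listed, Cldn4 was 22.5% ± 0.552 in mock and 30.1% ± 0.368 in p140Cap cells, Cldn7 was 31.5% ± 1.20 and 22.5% ± 0.454, and Cldn3 was 39.8% ± 2.19 and 40.8% ± 1.38 (SD over n = 3). The ratio of Cldn4 to Cldn7 per length was 0.743, 0.687 and 0.719 in mock and 1.31, 1.35 and 1.34 in p140Cap libraries. By this measure Cldn7 was the more abundant of the pair in each mock library and Cldn4 in each p140Cap library. The order in mock cells rests on the canonical length, since with the union of all exons Cldn4 led in both groups, with 26.0% against 23% for Cldn7 in mock and 33.5% against 15.8% in p140Cap cells.

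The other claudins were less abundant. Cldn2 (chrX:139800808-139811386, plus strand), which forms pores for small cations and water and marks leaky epithelia, had 137, 71 and 61 reads in mock and 70, 70 and 63 reads in p140Cap libraries, which is 1.79, 1.79 and 1.83 CPM against 4.61, 4.77 and 4.63 CPM. It was the largest rise of the junction genes tested, with a log2 fold change of 1.37 with an SE of 0.14 (edgeR adjusted p = 1.38e-07), and its replicates were close in both groups. Even so it stayed a rare transcript, at 1.49 CPM per kb in p140Cap cells against 167 for Cldn4. Cldn15, which also forms cation pores and is best known in the intestine, went down, with 55, 21 and 20 reads in mock and 5, 3 and 3 reads in p140Cap libraries. With the reads of a group pooled, it was 2.54 times higher in mock cells (exact 95% limits of 1.36 and 5.25, which cover counting error only), and the fitted log2 fold change was -1.32 with an SE of 0.40 (edgeR adjusted p = 0.00766). Its reads were too few for the test with a mock library left out, with thinned libraries or with at least 10 reads asked of every library. Cldn23 rose from 9.69 ± 0.124 to 12.9 ± 1.00 CPM (SD over n = 3), a log2 fold change of 0.41 with an SE of 0.08 (edgeR adjusted p = 0.000327).

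Cldn1, a claudin needed for the barrier of the skin, was at 64.6 ± 4.43 CPM in mock and 69.5 ± 1.36 CPM in p140Cap cells (SD over n = 3), with a log2 fold change of 0.11 with an SE of 0.06 (edgeR adjusted p = 0.101). Cldn12 was at -0.14 (SE 0.08) and Cldn8 at 0.22 (SE 0.20) on the log2 scale, and neither was called. Cldn6 had 1 read in each group, and Cldn9 had 10 reads in mock and 6 in p140Cap libraries, a level 2.07 times higher in p140Cap cells with exact 95% limits of 0.617 and 6.27 (counting error only). A difference in these 2 genes, which were not tested, was not detectable at this depth.

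**Figure D3:**
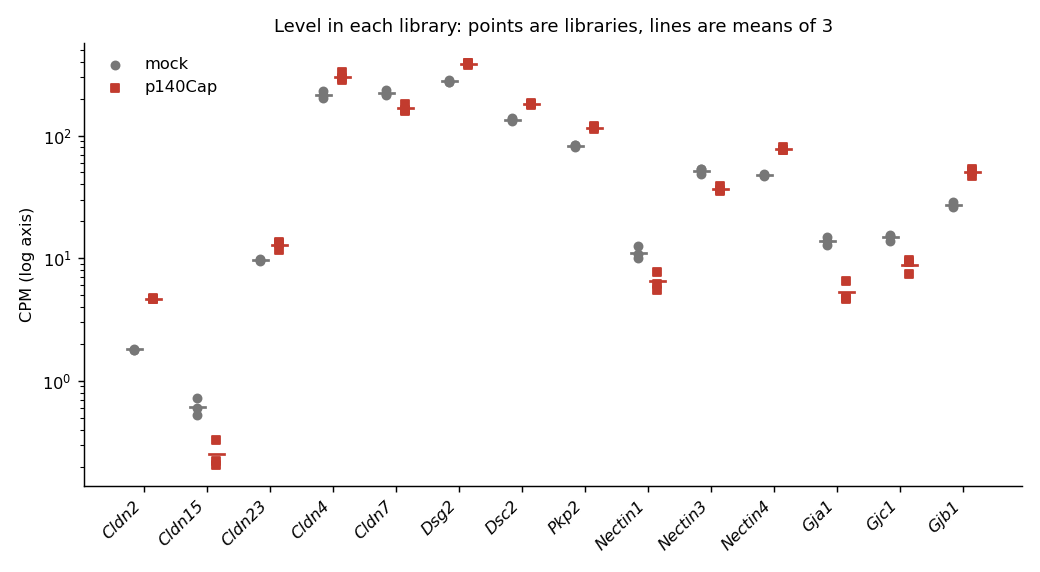
CPM (log axis) of 14 junction genes with a called change of at least 0.4 log2 units in either direction, in each of the 3 mock (grey circles) and 3 p140Cap (red squares) libraries, with a line at each mean. The groups do not overlap for any of the 14, and the p140Cap libraries are lower for Cldn15, Cldn7, Nectin1, Nectin3, Gja1 and Gjc1.

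The other membrane proteins of the tight junction split. Ocln, which encodes occludin, rose from 82.9 ± 2.58 to 95.4 ± 1.48 CPM, a log2 fold change of 0.20 with an SE of 0.05 (edgeR adjusted p = 0.00131). Marveld2, which encodes tricellulin, the occludin relative placed where 3 cells meet, fell from 51.2 ± 1.35 to 43.9 ± 0.435 CPM, a log2 fold change of -0.22 with an SE of 0.05 (edgeR adjusted p = 0.00110). In both genes the libraries of the 2 groups did not overlap. Marveld3, the remaining member of that family, had a log2 fold change of 0.14 with an SE of 0.05 (edgeR adjusted p = 0.0175), which was not called by edgeR without p140Cap replicate 1 (adjusted p = 0.0602), without p140Cap replicate 2 (adjusted p = 0.0705), without a filter on low counts (adjusted p = 0.0944) or with libraries thinned to equal depth (adjusted p = 0.0514). F11r, which encodes the adhesion molecule JAM-A, rose from 152 ± 3.95 to 190 ± 7.32 CPM (SD over n = 3), a log2 fold change of 0.32 with an SE of 0.05 (edgeR adjusted p = 1.55e-05).

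Of the 4 plaque genes, 3 rose slightly. Cgnl1, which encodes paracingulin, was the most abundant of them, at 777, 728 and 755 CPM in mock and 867, 909 and 854 CPM in p140Cap libraries, a log2 fold change of 0.22 with an SE of 0.05 (edgeR adjusted p = 0.000641) with no overlap. Its relative Cgn, cingulin, rose by a like amount, with a log2 fold change of 0.21 with an SE of 0.05 (edgeR adjusted p = 0.00127). Tjp1, the gene of the scaffold ZO-1, had a log2 fold change of 0.15 with an SE of 0.05 (edgeR adjusted p = 0.0183), and the nearest libraries of the 2 groups were at 232 and 233 CPM. It was not called without mock replicate 3 (adjusted p = 0.0894, edgeR), without p140Cap replicate 1 (adjusted p = 0.0999) or without a filter on low counts (adjusted p = 0.0502). Tjp3, ZO-3, was at 54.0 ± 4.49 and 57.3 ± 4.16 CPM (SD over n = 3) and was not called.

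Among the polarity genes, Crb3, the epithelial Crumbs, had a log2 fold change of 0.22 with an SE of 0.08 (edgeR adjusted p = 0.0162), and Patj, a scaffold of the Crumbs complex, of 0.14 (SE 0.05, adjusted p = 0.0193). The call of Crb3 was lost without mock replicate 1, mock replicate 2, p140Cap replicate 2 or p140Cap replicate 3 (adjusted p = 0.0501 to 0.0789, edgeR), and that of Patj without mock replicate 3 (adjusted p = 0.0593), p140Cap replicate 2 (adjusted p = 0.0849) or a filter on low counts (adjusted p = 0.0917). Crb3 shares exon bases with Dennd1c on the other strand. Pard3 and Pard6b, of the Par complex, were at 0.10 (SE 0.05) and -0.17 (SE 0.08) on the log2 scale, and neither was called. Mpp5, whose protein Pals1 joins Crumbs to Patj, was at 165 ± 6.24 CPM in mock and 196 ± 13.5 CPM in p140Cap cells (SD over n = 3), a log2 fold change of 0.24 with an SE of 0.05 (edgeR adjusted p = 0.000761).

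In the desmosome, both cadherins listed rose. Dsg2 (chr18:20558074-20604526, plus strand), desmoglein 2, the desmoglein of simple epithelia, was at 285, 275 and 271 CPM in mock and 388, 392 and 374 CPM in p140Cap libraries, a log2 fold change of 0.47 with an SE of 0.05 (edgeR adjusted p = 1.21e-07). Dsc2 (chr18:20030633-20059554, minus strand), desmocollin 2, was at 136, 138 and 131 CPM in mock and 182, 186 and 176 CPM in p140Cap libraries, a log2 fold change of 0.43 with an SE of 0.05 (edgeR adjusted p = 3.81e-07). The libraries of the 2 groups were far apart for both genes, which lie in the desmosomal cadherin cluster. Dsp, desmoplakin, the plakin that binds keratin filaments, was at 453, 423 and 422 CPM in mock and 546, 575 and 505 CPM in p140Cap libraries, a log2 fold change of 0.33 with an SE of 0.05 (edgeR adjusted p = 4.73e-05).

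Of the plakophilins, armadillo proteins that cluster desmosomal cadherins, 2 of 4 rose. Pkp2 (chr16:16213345-16272712, plus strand) was at 84.4, 80.8 and 83.3 CPM in mock and 113, 119 and 117 CPM in p140Cap libraries, a log2 fold change of 0.49 with an SE of 0.05 (edgeR adjusted p = 9.02e-08). Pkp1 rose from 104 ± 3.48 to 132 ± 3.65 CPM (SD over n = 3), a log2 fold change of 0.34 with an SE of 0.05 (edgeR adjusted p = 6.52e-06). The groups did not overlap for either gene. Pkp3 was at 0.09 with an SE of 0.06 (edgeR adjusted p = 0.216) and Pkp4, which is found in adherens junctions as well, at 0.01 with an SE of 0.05 (edgeR adjusted p = 0.914) on the log2 scale. As a share of the 4 plakophilins per length, Pkp2 was 21.3% ± 0.432 in mock and 26.0% ± 0.554 in p140Cap cells (SD over n = 3).

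The other desmosome genes were not called. By group means per canonical length, Jup, plakoglobin, was the most abundant gene of the whole list. Its level was 258 CPM per kb in mock and 237 in p140Cap cells, against 211 and 227 for Cldn3. Jup was at 854, 791 and 914 CPM in mock and 740, 843 and 762 CPM in p140Cap libraries, and the groups overlapped. Its log2 fold change was -0.13 with an SE of 0.06 (edgeR adjusted p = 0.0712), and it was called in 4 of the 14 alternatives, among them without mock replicate 2 (-0.18, adjusted p = 0.0141) and without p140Cap replicate 2 (-0.19, adjusted p = 0.00643). The plakins Ppl, periplakin, and Evpl, envoplakin, were at 0.09 (SE 0.06) and -0.12 (SE 0.12) on the log2 scale. Perp, a tetraspan protein of desmosomes and a p53 target, fell from 117 ± 2.35 to 78.4 ± 1.56 CPM (SD over n = 3), a log2 fold change of -0.57 with an SE of 0.05 (edgeR adjusted p = 1.54e-08), which is opposite in direction to the 5 called desmosome genes listed.

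Among the adherens junction genes listed, the nectins, immunoglobulin-like adhesion molecules that bind afadin, changed most, and not all in one direction. Nectin4 (chr1:171370173-171388287, plus strand), which is raised in many breast cancers, was at 48.8, 47.7 and 47.2 CPM in mock and 76.7, 79.9 and 76.9 CPM in p140Cap libraries. All p140Cap libraries were well above the mock libraries, with a log2 fold change of 0.70 with an SE of 0.05 (edgeR adjusted p = 2.06e-09). Nectin3 (chr16:46387665-46498535, minus strand) was at 53.4, 52.9 and 48.8 CPM in mock and 38.8, 35.9 and 35.3 CPM in p140Cap libraries, a log2 fold change of -0.50 with an SE of 0.06 (edgeR adjusted p = 1.23e-06). Nectin1 (chr9:43737075-43807461, plus strand), to which both Nectin3 and Nectin4 proteins can bind, was at 10.8, 10.1 and 12.5 CPM in mock and 5.54, 7.70 and 6.17 CPM in p140Cap libraries, a log2 fold change of -0.77 with an SE of 0.12 (edgeR adjusted p = 2.35e-05). None of the 3 genes had overlapping groups. Both Nectin1 and Nectin4 share exon bases with a long non-coding RNA gene on the other strand.

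Nectin2, which is outside the list, was the most abundant nectin measured here, at 22.3 CPM per kb in mock and 32.5 in p140Cap cells, against 12.3 and 20.0 for Nectin4, and it rose as well. Of the CPM per kb of these 4 nectins, Nectin2 held 53.0% ± 2.23 in mock and 56.5% ± 0.713 in p140Cap cells, Nectin4 held 29.3% ± 1.42 and 34.8% ± 0.391, and Nectin3 held 13.3% ± 1.12 and 6.87% ± 0.524 (SD over n = 3). Of the 3 nectins listed alone, Nectin4 held 62.3% ± 0.0703 and 79.9% ± 0.461. The intracellular partners changed less. Ctnnd1, p120-catenin, which keeps cadherins at the membrane, rose from 676 ± 18.5 to 768 ± 24 CPM, a log2 fold change of 0.18 with an SE of 0.05 (edgeR adjusted p = 0.00233). Its exons are shared with the annotated gene Gm28635 on the same strand, so the split of reads between the 2 is uncertain. Ctnna1, α-catenin, which links the complex to actin, was at 700 ± 9.78 and 726 ± 22.8 CPM, with a log2 fold change of 0.05 with an SE of 0.05 (edgeR adjusted p = 0.320). Afdn, afadin, the adaptor of nectins, was at 366 ± 15.5 and 339 ± 15.4 CPM (SD over n = 3), with a log2 fold change of -0.11 with an SE of 0.05 (edgeR adjusted p = 0.0592), a value near the threshold that was called in 7 of the 14 alternatives.

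**Figure D4:**
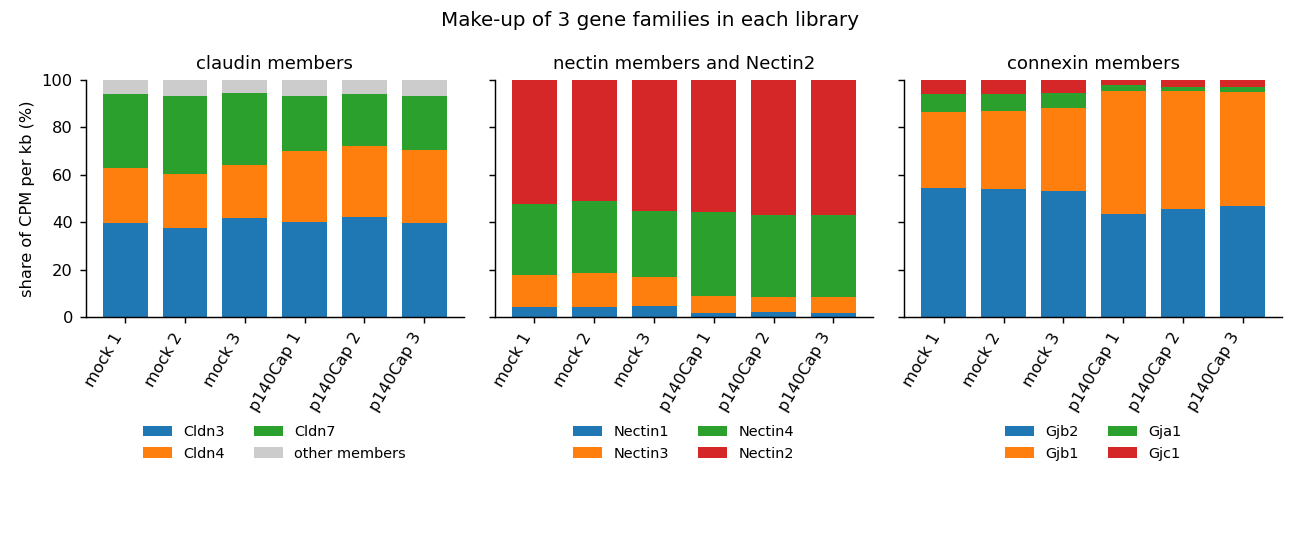
Share of CPM per kb of canonical transcript (y axis, %) held by single genes among the claudins and connexins listed and 4 nectins, in each of the 6 libraries. Cldn4 takes 30.1% of claudins in p140Cap against 22.5% in mock cells, Nectin4 34.8% against 29.3% of the nectins with Nectin2 added, and Gjb1 49.8% against 33.3% of connexins, while the 3 libraries of a group look alike.

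Of the 4 connexins tested, 2 fell, 1 rose and 1 was not called. Gja1 (chr10:56377300-56390419, plus strand), which encodes connexin 43, the connexin of myoepithelial and many other cells, had 1136, 554 and 423 reads in mock and 99, 70 and 63 reads in p140Cap libraries, which is 14.8, 13.9 and 12.7 CPM against 6.53, 4.77 and 4.63 CPM. The mock libraries were all far above the p140Cap libraries. Its log2 fold change was -1.38 with an SE of 0.12 (edgeR adjusted p = 2.19e-08). Gjc1 (chr11:102799477-102819686, minus strand), connexin 45, was at 15.2, 15.4 and 13.9 CPM in mock and 7.38, 9.6 and 9.25 CPM in p140Cap libraries, again with no overlap, and its log2 fold change was -0.77 with an SE of 0.10 (edgeR adjusted p = 2.13e-06).

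Gjb1 (chrX:101376376-101385629, plus strand), connexin 32, which is made by secretory cells of the lactating gland and by liver, moved the other way. It was at 26.3, 27.1 and 28.7 CPM in mock and 53.2, 51.8 and 46.6 CPM in p140Cap libraries, a log2 fold change of 0.89 with an SE of 0.06 (edgeR adjusted p = 2.08e-09). Gjb2, connexin 26, the connexin that assembles with connexin 32 in the gland, was at 60.7, 59.8 and 59.1 CPM in mock and 60.5, 64.5 and 61.3 CPM in p140Cap libraries, and its log2 fold change was 0.05 with an SE of 0.05 (edgeR adjusted p = 0.361). Gjb5 had 2 reads in mock and 0 in p140Cap libraries, which allows a level of up to 0.0690 CPM over the p140Cap group (3 reads, counting error only), and it was not tested.

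Per canonical length, Gjb2 was the leading connexin of the list in mock cells, with 53.8% ± 0.718 of the CPM per kb of the 5 listed, followed by Gjb1 with 33.3% ± 1.5. In p140Cap cells Gjb1 had 49.8% ± 1.79 and Gjb2 45.2% ± 1.71 (SD over n = 3), an order that turned with the union of all exons (46.8% and 49.3%). Gja1 went from 6.75% ± 0.520 to 2.09% ± 0.388 and Gjc1 from 6.03% ± 0.318 to 2.88% ± 0.429. With the union of all exons Gja1 went from 4.11% to 1.27%, a change of -2.84 points against -4.65. The ratio of Gjb1 to Gja1 per length was 4.42, 4.86 and 5.64 in mock libraries and 20.4, 27.1 and 25.1 in p140Cap libraries, so the groups were far apart on this ratio.

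Junction genes outside the list were read from a set of 73 further genes, of which 36 were tested and 26 called (72.2%, beside 71.1% of all genes tested), 13 in each direction, with a median log2 fold change of 0.03. This share is near that of all genes and is no result about them. The median size of the change in these 36 genes was 0.38, beside 0.32 for all genes. Of the 36, 6 were called with a change of at least 1 log2 unit, beside 9.97% of all genes tested. In the tight junction, 7 of 21 tested were higher and 8 were lower. The largest decreases in the set were in genes of low level. Igsf5, which encodes the adhesion molecule JAM4, had 585 reads in mock and 2 in p140Cap libraries (85.0 times higher in mock cells, exact 95% limits of 23.4 and 703), and Jam3 had 70 and 4 (5.08 times, limits of 1.90 and 19.2). The limits of both genes cover counting error only. Magi2, a scaffold, fell from 5.66 ± 0.504 to 1.06 ± 0.0552 CPM (SD over n = 3), a log2 fold change of -2.43 with an SE of 0.17 (edgeR adjusted p = 2.27e-09).

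Cdh1, E-cadherin, the cadherin of epithelial adherens junctions, was at 551, 540 and 537 CPM in mock and 571, 621 and 569 CPM in p140Cap libraries. Its log2 fold change was 0.11 with an SE of 0.05 (edgeR adjusted p = 0.0471), just past the threshold. Ctnnb1, β-catenin, had a log2 fold change of 0.23 (SE 0.04), Nectin2 of 0.54 (SE 0.06) and Epcam of 0.42 (SE 0.05), and these 3 were called. Cdh2, N-cadherin, went the other way, with 527, 244 and 219 reads in mock and 9, 6 and 10 reads in p140Cap libraries, which is 6.53 ± 0.378 against 0.579 ± 0.163 CPM (SD over n = 3) and a log2 fold change of -3.50 with an SE of 0.19 (edgeR adjusted p = 1.28e-10). Of the further desmosome genes, Dsg3, desmoglein 3, rose by 0.30 (SE 0.07) on the log2 scale and Dsg1c was not called, while Dsg1a and Dsg1b had 0 reads. Of 18 further gap junction genes, 3 were tested and 2 were called, both lower. Of these, Panx1, a pannexin, had 147 reads in mock and 8 in p140Cap libraries, a level 5.34 times higher in mock cells (exact 95% limits of 2.64 and 12.6, counting error only). Among the connexins tested in the list, Gjb1 was the one called higher.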

How the data were processed

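The authors prepared stranded, poly(A)-selected libraries, sequenced them on an Illumina NextSeq, and deposited raw counts, whole numbers of reads per gene, for 21960 genes with replicates kept apart and without normalization. The submitters' processing notes name STAR 2.5, RSEM 0.1.1 and mm10. Neither the annotation release nor the use of strand in counting is given in the sources used here. Exon bases of 18 genes of the list are shared with a gene on the other strand, and those of 1 with a gene on the same strand.

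Counts were fitted in R 4.3.3 with edgeR 4.0.16 (filterByExpr by group, TMM factors, quasi-likelihood test, condition as the sole term), which tested 11800 genes and left out 10160 with too few reads. The SE of a change was taken from its size and the F statistic, as size over root F. On simulated counts for this comparison (11779 genes, 198 changed, each by at least 1 log2 unit), 98.5% of changed genes were recovered, and 7.58% of calls were unchanged genes. Smaller changes, which most genes of the list had, were not simulated. A setting where most genes change, as here with 71.1% called, was not simulated either. Levels per length use the canonical transcript of GENCODE M39, and gene positions are those of RefSeq on GRCm38.p6. Members and lists were chosen with earlier results of these data known. Named outside the list were Srcin1, Mpp5, Cdh1, Ctnnb1, Epcam, Nectin2, Perp and Grhl2, and, per further list, the 3 called genes at most that changed most, apart from genes not reported here. Motifs, printed promoters, the ratios of single genes and Dsg1a to Dsg1c, Esrp1, Esrp2, Twist1, Ovol2, Elf5, Zeb1, Snai1, Snai2 and the marker genes given singly were chosen after values were seen. Alternatives were RLE factors, DESeq2 1.42.0, limma-voom (limma 3.58.1), no filter, at least 10 reads in every library, a fit without each library in turn, replicate number as a block, thinning to 13770385 reads and factors without chromosome 19. Union exon length and Nectin2 in the nectin shares were added after seeing the data. No libraries of a group were copies (mean chi-square between 1.75 and 10.7, where sampling noise gives 1).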

Additional observations from a re-analysis of the deposited data

How the results depend on the processing

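Of the 26 called genes, 22 were called in the same direction in each alternative that tested them, of 14 run, and none of the 26 changed sign. The others were Crb3, Marveld3, Patj and Tjp1, all with changes of at most 0.22 log2 units. Calls were gained in some alternative for Afdn, Cldn1, Cldn12, Cldn3, Jup, Pard6b and Pkp3. The number of genes called lower was 7, and 11 without a filter on low counts, and it was 7 to 10 with 1 library left out. The number called higher was 19, and 16 without that filter and 16 to 19 with 1 library left out. Signs turned only for genes that were not called. With 1 library left out, Cldn3 ranged from -0.00386 (without p140Cap replicate 2) to 0.21 and Evpl from -0.25 to 0.02 (without p140Cap replicate 3), and Pkp4 lay at -0.02 without a filter, -0.000108 with at least 10 reads in every library, -0.02 without mock replicate 2 or p140Cap replicate 2 and -0.01 with factors from genes outside chromosome 19. The Cldn4 share rose by 7.08 points with thinned libraries (7.56 otherwise), and with union exon length the Cldn7 share moved by -7.16 points (-8.97 otherwise) and the Gja1 share by -2.84 points (-4.65 otherwise). Same-numbered libraries of the 2 groups did not deviate together (correlations from -0.106 to -0.0299). With the replicate block, 7 genes were called lower and 19 higher, and no call changed. Depth limits Cldn6, Cldn9, Cldn15 and Gjb5.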

Other observations

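Regulators of junction genes, a list of 15 of which 13 were tested, had 9 called (69.2%, beside 71.1% of all genes tested), 5 higher and 4 lower, with a median log2 fold change of 0.09. Grhl2, a Grainyhead factor that activates Cldn4 and Cdh1 in epithelia, rose from 127 ± 1.98 to 157 ± 3.07 CPM (SD over n = 3), a log2 fold change of 0.30 with an SE of 0.04 (edgeR adjusted p = 1.45e-05). Elf3, an epithelial ETS factor, rose by 0.54 (SE 0.07) on the log2 scale. Grhl3, a relative of Grhl2, went from 2.98 ± 0.194 to 1.58 ± 0.281 CPM, a log2 fold change of -0.92 (SE 0.18), and Zeb2, a repressor of epithelial genes that binds E-boxes, from 3.21 ± 0.199 to 2.04 ± 0.357 CPM, a log2 fold change of -0.68 (SE 0.17), both called by edgeR. Snai1, Snail itself, which acts on the same sites, was at 3.19 ± 0.123 and 3.54 ± 0.188 CPM (SD over n = 3), with a log2 fold change of 0.16 (SE 0.13, edgeR adjusted p = 0.306), and was not called. Zeb1 and Snai2, which also act there, had 1 read each over the 6 libraries. Esrp1 and Esrp2, splicing factors of epithelial cells, were higher by 0.15 (SE 0.05) and 0.28 (SE 0.05) on the log2 scale. The epithelial factors Ovol2 and Elf5 went the other way, with log2 fold changes of -0.28 (edgeR adjusted p = 0.0214) and -0.12 (edgeR adjusted p = 0.0356). Twist1, named with mesenchymal programs, was higher as well, by 0.33 (SE 0.08).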
